A study of Mus musculus with 6 samples.

Results

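ERVL and MaLR elements are long terminal repeat (LTR) retrotransposons, which are remnants and relatives of retroviruses copied many times through the mouse genome. Their RNA was measured in mouse induced pluripotent stem cells (iPSCs), made by returning differentiated cells to pluripotency. A subfamily belonged here if its row in the deposited count table was classed as ERVL or as ERVL-MaLR and had a mean of 10 or more counts over the 6 libraries. This gave 72 of 113 ERVL rows and 84 of 108 MaLR rows, together 156 of 1146 transposable element rows and of 25567 rows in all. The rows nearest the limit were LTR82B and MLT1M, with a mean count of 10, inside it, and MER54B (9.67) and MLT1G3-int (7.17) outside it.

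The study compared 3 libraries of SRF KO iPSCs, in which both alleles of the gene of serum response factor are deleted (SRFΔ/Δ), with 3 libraries of WT iPSCs, which carry the intact floxed allele (SRFf/f). Both were grown in medium with serum, and the labels name no other treatment. SRF is a transcription factor of cytoskeletal and immediate-early genes. The labels do not say whether the libraries of a group are separate clones or cultures of 1 clone, so that p-values measure the spread between these libraries, which may be technical. Total counts were between 26321602 and 36680156 per library. The targeted gene Srf had 3.17 to 4.53 CPM, which are counts relative to the library total after TMM scaling, in SRF KO and 29.7 to 37.2 CPM in WT, without overlap.

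ERVL elements use a leucine transfer RNA to prime reverse transcription. The mouse member MERVL has an internal part, MERVL-int, which holds the retroviral genes, between copies of its LTR, MT2_Mm, which carries the promoter. MERVL is known for its burst of transcription in the 2-cell embryo and for reactivation in the rare 2-cell-like cells of pluripotent cultures. MaLR elements are relatives that encode no proteins of their own. In rodents they include the MT and ORR1 groups, of which MT elements are known as promoters in oocytes, while MLT1 elements are older and shared with other mammals. Reads that fit several copies may have been split, assigned or dropped by the authors' counting, whose rule is not given in the sources used here. Values of related rows are uncertain for that reason. No lengths of the counted copies were used, so levels are compared between libraries and not between rows.

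MERVL-int and MT2_Mm were higher in SRF KO, whereas the 6 other rows of the MERVL and MT2 name group did not rise. MERVL-int, the internal part, had 122.7, 132.0 and 131.6 CPM in SRF KO replicates 1 to 3 and 77.1, 89.8 and 77.7 CPM in WT replicates 1 to 3. Every SRF KO library lay above every WT library. Against a WT mean of 81.5 ± 7.13 CPM, the SRF KO mean of 129 ± 5.24 CPM (SD, n = 3) is 158%. The log2 fold change of SRF KO over WT was 0.66 (SE 0.06, edgeR adjusted p 9.7e-06). The test was edgeR's quasi-likelihood test and the adjustment that of Benjamini and Hochberg over all rows, here and for the other single rows.

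MT2_Mm, the LTR of MERVL, had 34.9, 36.4 and 35.2 CPM in SRF KO and 25.3, 25.8 and 26.3 CPM in WT. These groups did not overlap either, and the spread within each was small. The SRF KO mean was 137% of the WT mean, so that the log2 fold change was 0.46 with an SE of 0.06 (edgeR adjusted p 8.4e-05).

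The other rows of the name group behaved differently. MERVL_2A-int, a related internal row, had 39.1, 41.2 and 36.8 CPM in SRF KO and 39.2, 42.9 and 38.1 CPM in WT, so that the groups overlapped. Its log2 fold change was -0.04, with a 95% interval of -0.18 to 0.11, and its sign turned under other scalings. Among the related LTRs, MT2B changed by -0.08 (95% interval -0.24 to 0.08), MT2B1 by -0.14 (-0.29 to 0.01), MT2B2 by -0.01 (-0.20 to 0.19) and MT2C_Mm by -0.11 (-0.26 to 0.04), none past the threshold of 0.05 on the adjusted p. The intervals of these 5 rows end below the log2 fold changes of MERVL-int and MT2_Mm. The sign of MT2B2 turned with RLE factors, library totals or scaling by transposable element rows.

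MT2A was the sixth of these rows and the only one of them called, in the other direction. It had 27.4, 28.7 and 27.3 CPM in SRF KO and 31.5, 32.7 and 30.4 CPM in WT, or -0.18 as log2 fold change (SE 0.06, edgeR adjusted p 0.0366). The call was lost without WT replicate 1 (-0.18) or SRF KO replicate 1 (-0.17), 2 (-0.20) or 3 (-0.17), and also with DESeq2, library totals, no filter and transposable element rows alone used for scaling (-0.10). It was kept in 4 of 12 alternatives.

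**Figure D1:**
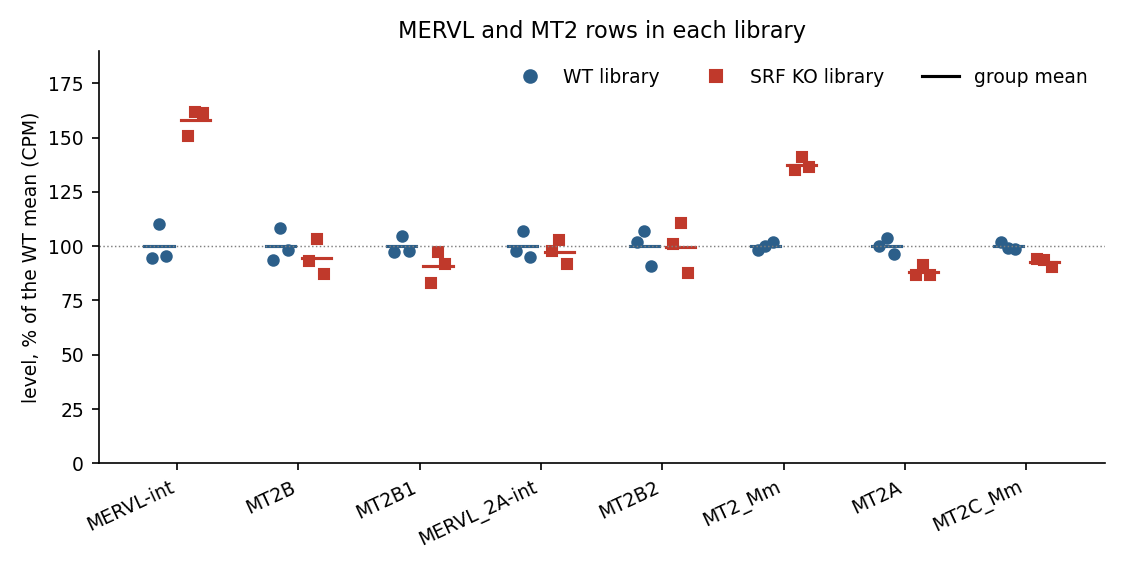
Level of each MERVL and MT2 row in each library, as percent of the mean of the 3 WT libraries (vertical axis), with rows ordered by mean count from left to right. Circles are WT and squares SRF KO libraries, and bars are group means. MERVL-int (158%) and MT2_Mm (137%) are the rows whose SRF KO libraries all lie above the WT libraries.

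Ratios within a library need no scaling and compare the rows directly. MERVL-int gave 3.14, 3.20 and 3.57 counts per count of MERVL_2A-int in SRF KO and 1.97, 2.09 and 2.04 in WT. The difference was 0.70 on the log2 scale. MT2_Mm gave 1.27, 1.27 and 1.29 counts per count of MT2A in SRF KO and 0.805, 0.790 and 0.866 in WT, a difference of 0.64. Against MT2B, MT2B1, MT2B2 and MT2C_Mm the ratio of MT2_Mm differed by 0.54, 0.60, 0.47 and 0.57. For all 6 ratios, which were chosen after their values were seen, the SRF KO libraries lay above the WT libraries. When the 6 libraries were exchanged in all 20 ways, each ratio had a two-sided exact permutation p of 0.1 (0.1 also after Benjamini-Hochberg adjustment over the 6). A design of 3 against 3 cannot give a smaller p.

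The internal part and its own LTR were compared in the same way. There were 3.52, 3.63 and 3.74 counts of MERVL-int per count of MT2_Mm in SRF KO and 3.04, 3.48 and 2.96 in WT, so that the highest WT library, replicate 2, came close to the lowest SRF KO library. The log2 difference was 0.20 (exact two-sided permutation p = 0.1, again the smallest possible).

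The summed counts of the ERVL rows moved with these 2 subfamilies. ERVL members took 0.0732%, 0.0780% and 0.0730% of all counts in SRF KO and 0.0662%, 0.0713% and 0.0670% in WT, without overlap. All shares here are of raw library totals, without the TMM factors behind the CPM values. Those factors were 1.003 to 1.019 in SRF KO and 0.978 to 0.996 in WT. With them applied, WT replicate 2 would lie above SRF KO replicates 1 and 3, so that the lack of overlap depends on the scaling. The ratio of the means of the raw shares was 1.10. Without MERVL-int and MT2_Mm the WT share was 0.0576% ± 0.00211 and the SRF KO share 0.0581% ± 0.00267 (SD, n = 3), a ratio of 1.01 and a difference smaller than either SD. Both rows were left out because they rose, so that the ratio had to fall. By name group, the MLT2 and RMER sums also lay above WT without overlap, with ratios of 1.23 and 1.06. Of the 9 MLT2 rows only 1, MLT2C2, was called and free of overlap. Of the 4 RMER rows 0 were called and 3 had negative fold changes. The RMER sums would overlap with the TMM factors applied. The sums of the LTR, other ERVL and ERVL internal name groups had ratios of 0.958, 0.965 and 0.959, with overlap. MaLR members took 0.255% ± 0.00499 of WT counts and 0.251% ± 0.00936 of SRF KO counts (SD, n = 3), a ratio of 0.982 with overlapping libraries. All transposable elements together took 5.20% ± 0.235 of WT counts and 5.22% ± 0.189 of SRF KO counts (SD, n = 3).

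Counted by subfamily, few ERVL members were called. Of the 71 ERVL members that passed the filter on low counts (LTR53B did not), 3 were higher and 5 lower in SRF KO, which is 11.3%. Over all 15611 rows tested 41.1% were called, 20.4% higher and 20.7% lower, and over the 833 transposable element rows tested 16.9% were called, 5.88% higher and 11.0% lower. The median log2 fold change of the ERVL members was -0.02, against -0.02 over all rows and -0.08 over transposable element rows. The SRF KO and WT values did not overlap for 18 of the 71, or 25.4%, against 51.4% of all rows and 29.2% of transposable element rows. These shares are all below the background, but they differed by depth. The median of the mean counts was 39.2 for ERVL members, 506 for all rows and 129.5 for transposable element rows. Of the 17 ERVL members with a mean of 100 or more, 6 were called (35.3%) and 9 did not overlap (52.9%). Against all rows tested, the first share is below 41.1% and the second is near 51.4%. Both are above those of transposable element rows, but these were taken at any depth. No share was taken for transposable element rows with a mean of 100 or more, so that no excess is shown. Of the 54 tested with a lower mean, 2 were called (3.70%) and 9 did not overlap (16.7%). Over all ERVL members tested, leaving out SRF KO replicate 3 left 1 lower. Leaving out SRF KO replicate 1 or WT replicate 1 left 2, and leaving out SRF KO replicate 2 left 3. When WT replicate 2 was omitted, 6 were higher. With transposable element rows setting the scaling, 4 were higher and 1 lower.

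The third ERVL rise was that of MLT2C2, one of the MLT2 elements, older LTRs of the ERVL class. It had 7.77, 7.93 and 7.67 CPM in SRF KO and 4.45, 4.31 and 4.43 CPM in WT, from 111 to 222 counts per library. The SRF KO libraries stood clear of the WT libraries, at 177% of their mean. The log2 fold change was 0.82 (SE 0.09, edgeR adjusted p 3.4e-05). The other 8 MLT2 rows were not called. The one with a similar estimate, MLT2B5, had 20, 39 and 22 counts in SRF KO and 14, 21 and 15 in WT, which overlap, with a log2 fold change of 0.82 and an SE of 0.35 (edgeR adjusted p 0.0792). It passed the threshold without WT replicate 2, at 1.14.

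LTR82A, a sparsely expressed LTR, had the fall with the smallest adjusted p among ERVL members. It had 75, 66 and 71 counts in SRF KO and 137, 118 and 100 in WT, or 2.79, 2.49 and 2.45 against 3.78, 4.59 and 3.49 CPM. The groups did not overlap, and the log2 fold change was -0.61 (SE 0.14, edgeR adjusted p 0.00526). Its companion by name, LTR82B, lay at the limit for inclusion.

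The remaining ERVL falls were small or rested on few counts. MER21B went from 12.8, 12.7 and 12.4 CPM in WT to 10.5, 10.7 and 10.2 CPM in SRF KO, a log2 fold change of -0.27 (edgeR adjusted p 0.0121). MER21C, its close relative by name, changed by -0.30 (edgeR adjusted p 0.0202). LTR86B2 had 5, 8 and 9 counts in SRF KO and 22, 13 and 12 in WT, with a log2 fold change of -0.94 and an SE of 0.33 (edgeR adjusted p 0.0389).

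These 3 calls were lost in several of the 12 alternatives. MER21B was not called without SRF KO replicate 3 (-0.25). MER21C was not called without WT replicate 1 (-0.25) or SRF KO replicate 1 (-0.28) or 3 (-0.25). Of the fits that left out a library, LTR86B2 was called in the one without WT replicate 3 alone. Its log2 fold changes when SRF KO replicate 1, 2 or 3 was left out were -0.75, -1.03 and -1.07, and -0.77 and -0.95 when WT replicate 1 or 2 was. It was also lost with no filter on low counts, and 3 of the 12 kept it. Neither DESeq2 nor scaling by transposable element rows called any of the 3.

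The most abundant ERVL row by count was RMER15, a rodent LTR, with 125.8, 139.1 and 127.4 CPM in SRF KO and 112.7, 131.4 and 115.0 CPM in WT. The groups overlapped through WT replicate 2, and the log2 fold change of 0.13 did not pass the threshold (SE 0.07, edgeR adjusted p 0.142). It did pass at 0.20 without WT replicate 2 and at 0.21 when transposable element rows alone set the scaling. RMER10A changed by -0.02, with a 95% interval of -0.14 to 0.10, and turned sign with library totals or scaling by transposable element rows. LTR50 was the uncalled ERVL row with the smallest p, at -0.52 (SE 0.20, edgeR adjusted p 0.0565), and passed without WT replicate 2 (-0.59).

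**Figure D2:**
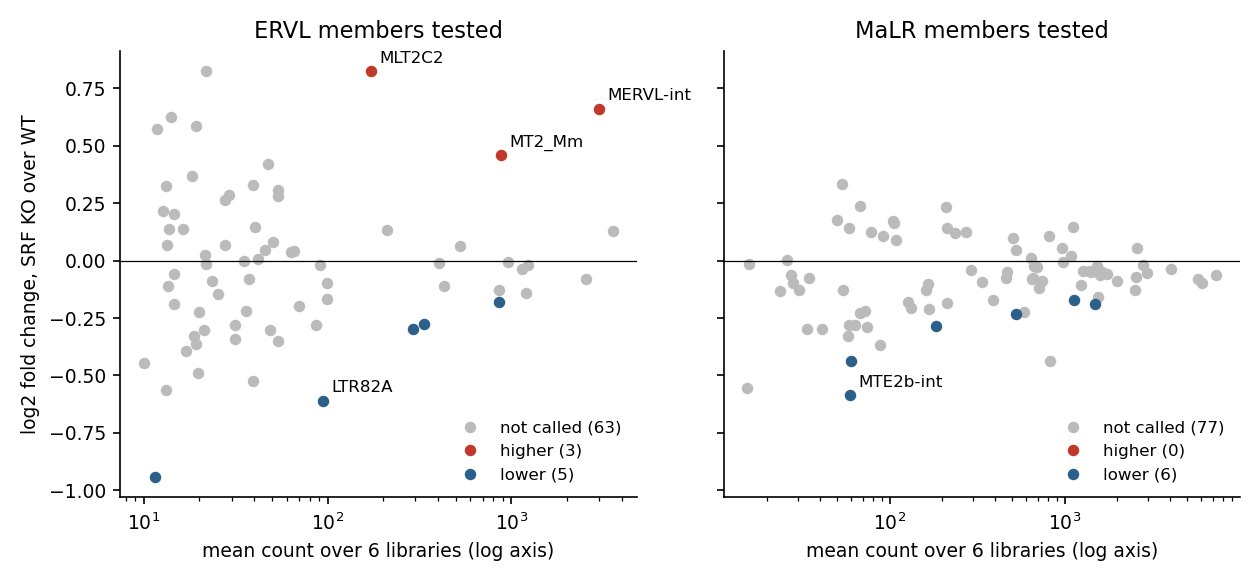
Log2 fold change of SRF KO over WT (vertical axis) against the mean count over the 6 libraries (horizontal log axis) for the ERVL (left, 71) and MaLR (right, 83) members tested. Each point is a subfamily, coloured by its call at an adjusted p under 0.05. MERVL-int and MT2_Mm stand above the other ERVL rows of similar or higher count, and the spread of uncalled rows widens toward low counts.

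No MaLR member passed the test in the upward direction, and few did in the other. Of the 83 MaLR members that passed the filter (MLT1M did not), 0 were higher and 6 lower by edgeR, which is 7.23%, against the 20.4% higher and 20.7% lower over all rows and the 5.88% higher and 11.0% lower over transposable element rows given above. At an unadjusted p under 0.05 there were 11 MaLR members, and DESeq2 gave 0 higher and 1 lower. Fold changes lay between -0.58 and 0.33 with a median of -0.07, close to the median over all transposable element rows, and 70 of the 83 were within 0.25 of 0 on the log2 scale. For 18 members, or 21.7%, the groups did not overlap, 14 with SRF KO below and 4 with SRF KO above, a share below the 51.4% of all rows and the 29.2% of transposable element rows. Leaving out SRF KO replicate 1 or 3 left 1 lower, and leaving out SRF KO replicate 2 or WT replicate 2 left 3. When WT replicate 2 or WT replicate 1 was omitted, 3 and 1 were higher. With RLE factors 1 was higher and 4 lower, with library totals 2 and 3, and with transposable element rows setting the scaling 1 and 1.

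Most called MaLR rows belonged to the MT group. Of its 19 members, 4 were lower, or 21.1%, which is close to the 20.7% lower over all rows, against 11.0% of transposable element rows. A negative fold change was seen in 17 of the 19 and in 65.5% of transposable element rows. The group median of -0.08 equals that over all transposable element rows, and it is as large as the shift of 0.08 in all rows when transposable element rows set the scaling. MTE2b-int, an internal row, had 1.56, 1.66 and 1.69 CPM in SRF KO and 2.43, 2.37 and 2.58 CPM in WT, from 42 to 88 counts. All SRF KO libraries were below all WT libraries, with a log2 fold change of -0.58 with an SE of 0.15 (edgeR adjusted p 0.00738). DESeq2 gave the same size and an adjusted p of 0.0536.

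MTEa, MTB-int and MTC-int had log2 fold changes of -0.19, -0.23 and -0.17 (edgeR adjusted p 0.0168, 0.0227 and 0.0460). In each of the 3, the SRF KO libraries lay below the WT libraries. The call of MTEa was lost without SRF KO replicate 1 (-0.18) or SRF KO replicate 3 (-0.17), and that of MTB-int without SRF KO replicate 1 (-0.23) or SRF KO replicate 3 (-0.20). With transposable element rows setting the scaling neither was called (-0.11 and -0.15), and DESeq2 did not call MTB-int. The call of MTC-int was kept when WT replicate 3 was left out and lost without SRF KO replicate 1 (-0.19), 2 (-0.19) or 3 (-0.14) and without WT replicate 1 (-0.17) or 2 (-0.13). It was also lost with DESeq2, RLE factors, library totals, scaling by transposable element rows and no filter, so that 2 of 12 alternatives kept it.

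The MT rows known from oocytes had many counts and differences whose 95% intervals include 0. MTA_Mm, the LTR, had 195.5, 199.7 and 187.5 CPM in SRF KO and 194.8, 218.3 and 202.4 CPM in WT. MTA_Mm-int had 199.7, 218.2 and 196.2 CPM in SRF KO and 227.3, 219.9 and 209.5 CPM in WT. Both pairs of groups overlapped, and the log2 fold changes were -0.08 (95% interval -0.20 to 0.04) and -0.10 (-0.22 to 0.03). MTD, with the most counts of any MaLR row, changed by -0.06 (-0.18 to 0.05) and MTC by -0.04 (-0.15 to 0.08). ORR1B1-int, the fifth by count, changed by -0.05 (-0.20 to 0.09). The signs of MTA_Mm, MTC, MTD and ORR1B1-int turned when transposable element rows alone set the scaling.

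In the ORR1 group, 1 of 28 members was lower (3.57%) and 0 higher. Over all rows tested 20.7% were lower and 20.4% higher, and over transposable element rows 11.0% and 5.88%. The lower member was ORR1C2-int, with 165, 148 and 161 counts in SRF KO and 233, 192 and 208 in WT. Its log2 fold change was -0.29 (edgeR adjusted p 0.0431). It was called without WT replicate 1 and not called without SRF KO replicate 1 (-0.33), 2 (-0.26) or 3 (-0.26) or without WT replicate 2 (-0.24) or 3 (-0.26). DESeq2, RLE factors, library totals and scaling by transposable element rows did not call it either. ORR1A0 was the uncalled MaLR row with the smallest p and lay on the other side of 0. It had 41.2, 40.8 and 40.3 CPM in SRF KO against 37.6, 36.1 and 36.99 CPM in WT, without overlap, with a log2 fold change of 0.14 and an SE of 0.05 (edgeR adjusted p 0.0521).

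Among the older MLT1 elements, 1 of 34 members tested was lower (2.94%) and 0 higher. This share is below the 20.7% lower over all rows and the 11.0% over transposable element rows. MLT1I had 49, 45 and 52 counts in SRF KO and 77, 65 and 75 in WT, or -0.44 as log2 fold change (SE 0.15, edgeR adjusted p 0.0390). It was not called without SRF KO replicate 1 (-0.46), 2 (-0.40) or 3 (-0.45) or without WT replicate 2 (-0.40) or 3 (-0.38), nor with DESeq2, library totals or scaling by transposable element rows. MLT1J2 had the opposite sign, at 0.23 (SE 0.09, edgeR adjusted p 0.0700). It passed the threshold with library totals in place of TMM, at 0.27.

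**Figure D3:**
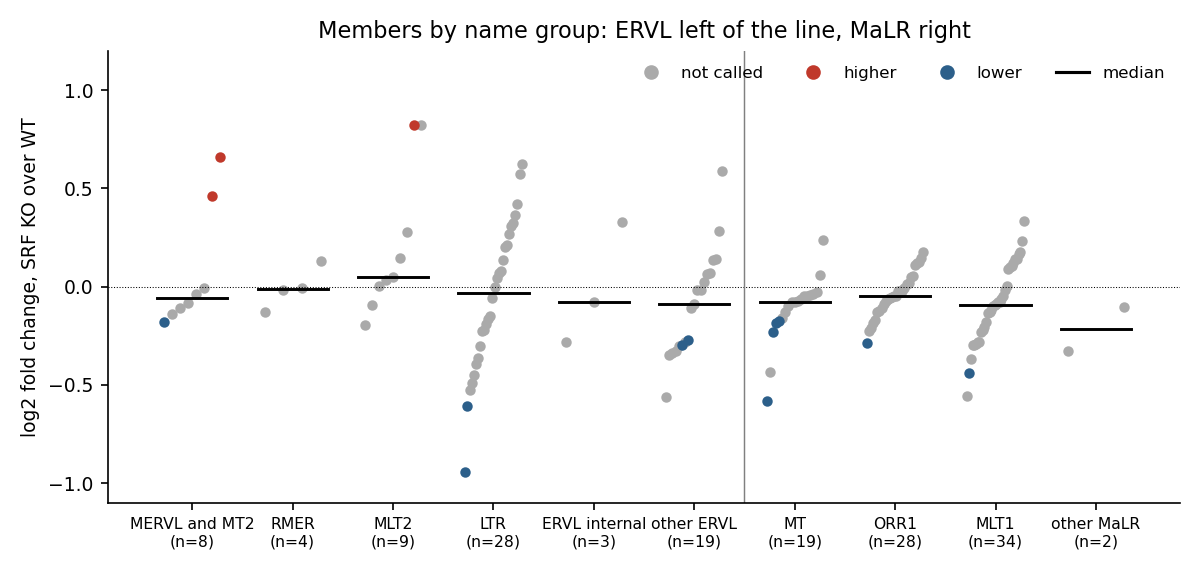
Log2 fold change of SRF KO over WT (vertical axis) of each tested member, grouped by the start of its name (horizontal axis) and sorted within a group, with ERVL groups left and MaLR groups right of the line. Points are subfamilies, bars are group medians. The medians lie between -0.22 and 0.05, and the called rises are MERVL-int and MT2_Mm in the first group and MLT2C2 in the third.

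MTEb-int was the member whose libraries disagreed most, and it was singled out after its values were seen. It had 417, 783 and 679 counts in SRF KO and 2315, 337 and 390 in WT, or 15.5, 29.6 and 23.5 against 63.9, 13.1 and 13.6 CPM. WT replicate 1 alone was high. The SD of its log2 CPM within WT was 1.28, whereas the next highest within-group SD among the 74 members with a mean of 100 or more counts was 0.268, for ORR1B2-int. Its log2 fold change was -0.43 (SE 0.49, edgeR adjusted p 0.513) and became 0.77 without WT replicate 1 (edgeR adjusted p 0.0125). Its LTR row MTEb had between 23.2 and 25.03 CPM in all 6 libraries, WT replicate 1 included.

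Internal rows were compared with LTR rows in 30 pairs, 3 ERVL and 27 MaLR. The rows of a pair share a name, except that MERVL-int was paired with its LTR, MT2_Mm. MERVL-int with MT2_Mm was the 1 pair with both rows called. In 19 pairs the ratio of internal to LTR counts overlapped between the groups, in 5 it was higher in every SRF KO library and in 6 lower. Those lower include MTB-int over MTB, with 0.357, 0.364 and 0.344 in SRF KO and 0.409, 0.399 and 0.403 in WT, and MTC-int over MTC, with 0.275, 0.260 and 0.261 against 0.299, 0.294 and 0.281. For single rows, the groups did not overlap in 51.4% of all rows and 29.2% of transposable element rows. No such share was taken for ratios of other rows. The smallest exact permutation p was 0.1, the limit of the design, or 0.273 after Benjamini-Hochberg adjustment over the 30 pairs. No pair therefore passed 0.05.

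**Figure D4:**
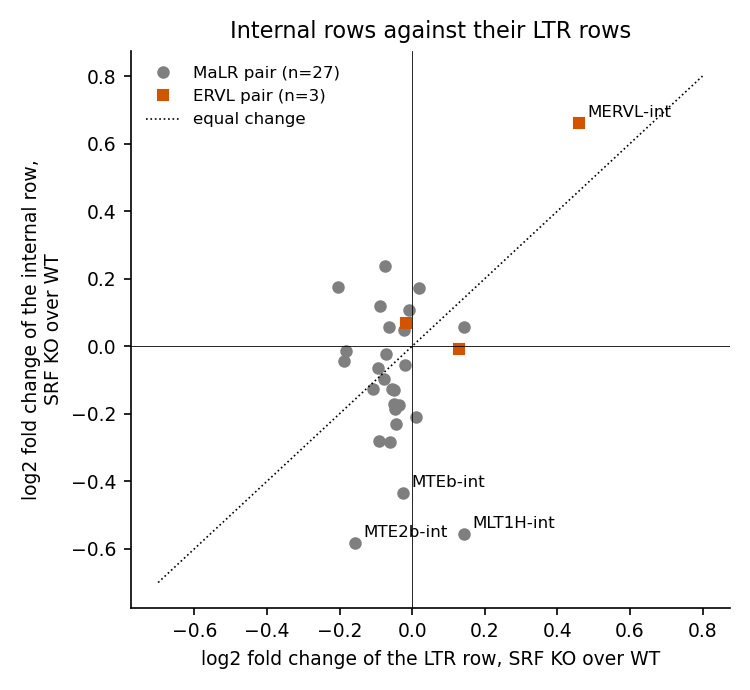
Log2 fold change of SRF KO over WT of the internal row (vertical axis) against that of its LTR row (horizontal axis) for 27 MaLR pairs (circles) and 3 ERVL pairs (squares). Pairs share a name, except MERVL-int with MT2_Mm. The dotted line marks equal change. MERVL-int with MT2_Mm lies alone at the upper right, at 0.66 and 0.46.

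Of the 14 called members, 4 kept their call in all 12 alternative fits run for them (other tool, scaling, filter, replicate block and each library left out). These were MERVL-int, MT2_Mm, MLT2C2 and LTR82A. At an adjusted p under 0.01, 5 were called, these 4 and MTE2b-int. The depth behind a row set what could be seen. The 26 uncalled members with a mean of 1000 or more counts all had 95% intervals within 0.5 of 0 on the log2 scale. This held for 36 of 38 uncalled members with 100 to 1000 counts, for 10 of 41 with 30 to 100 and for 0 of 35 with fewer. For the thinnest uncalled rows a change of this size could therefore not be excluded at this depth.

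**Figure D5:**
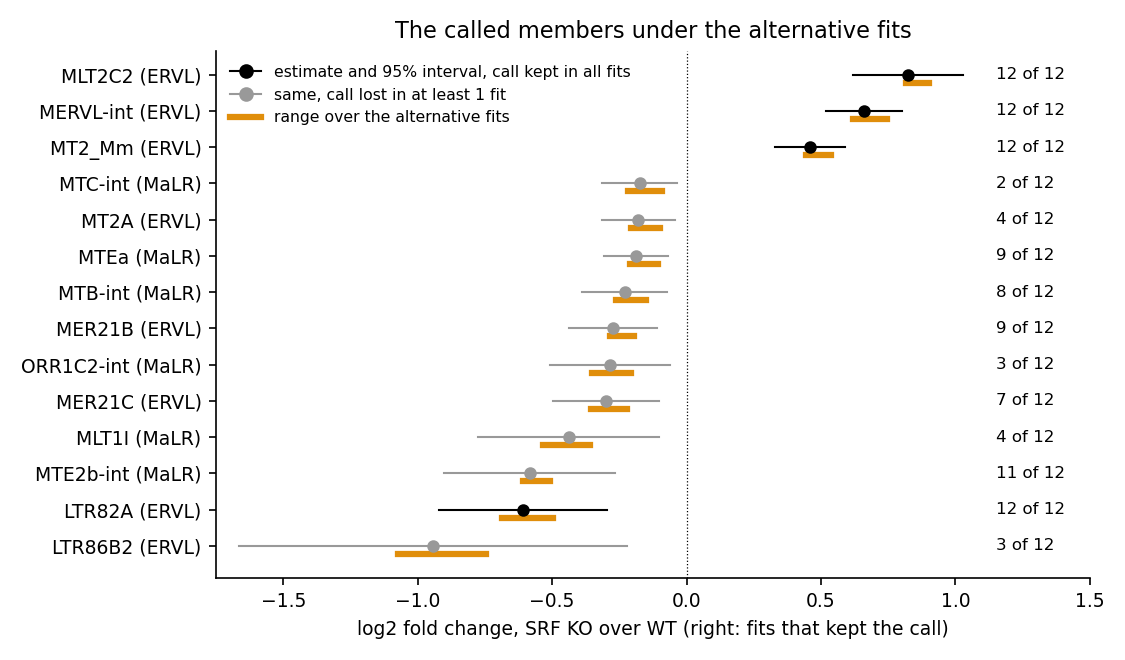
Log2 fold change of SRF KO over WT (horizontal axis) of the 14 called members, with the 95% interval of the estimate (thin line) and the range over 12 alternative fits (thick line). Numbers at the right give the fits that kept the call, which are all 12 for MLT2C2, MERVL-int, MT2_Mm and LTR82A.

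Genes known with MERVL from the 2-cell stage were read from a list of 42, of which 37 were in the table and 17 passed the filter on low counts. Of these, 15 were higher and 0 lower, with 21.2% of all genes tested higher. The other 20 had too few counts, and a gene can pass this filter through 1 group alone, so that the count of 15 gives no independent support. Usp17le, of a deubiquitinase family, rose from 0.729 ± 0.113 to 2.15 ± 0.151 CPM, and Zscan4f, Zscan4b and Zscan4c, of a zinc finger family active at that stage, had log2 fold changes of 1.37, 1.60 and 1.73 (edgeR adjusted p 5.1e-05, 6.8e-05 and 6.8e-05). The summed level of the 37 genes was between 294 and 315 CPM in SRF KO and between 273 and 318 CPM in WT, which overlap. Most of this sum came from Eif1a, which was not called. Without Eif1a, a choice made after its values were seen, the sum was between 32.3 and 34.5 CPM in SRF KO and between 10.5 and 14.5 CPM in WT. Reads may be shared among the copies of these families, which was not tested. Tdpoz1, Tdpoz5 and Gm4340 were at 0 counts in all 6 libraries.

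Of 10 known activators of MERVL in the table, 6 could be tested and 1 was higher, with 21.2% of all genes tested higher, so that the count is near the background. Dux, the embryonic transcription factor that binds the MERVL LTR, had 5, 6 and 4 counts in SRF KO and 2, 1 and 4 in WT, too few for a test. Dppa2, which acts upstream of Dux, was the gene called. It had 114 ± 5.69 CPM in WT against 149 ± 6.76 CPM in SRF KO (SD, n = 3), or 0.39 as log2 fold change (SE 0.06, edgeR adjusted p 0.000178). Its partner Dppa4 changed by -0.04 (edgeR adjusted p 0.633), with a sign that turned under other scalings.

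Of 36 tested genes of MERVL silencing (chromatin regulators whose loss is known to raise MERVL or related elements), 13 were lower and 2 higher, against 21.3% lower and 21.2% higher over all genes tested. The number lower was 5 when SRF KO replicate 1 or 3 was omitted, 6 with library totals in place of TMM and 3 when transposable element rows set the scaling, where 4 were higher. In the other direction, 15 were lower and 5 higher without WT replicate 2. Without SRF KO replicate 1, 2 or 3, 1 was higher. Chaf1b, of the histone chaperone CAF-1, changed by -0.36, the demethylase gene Kdm1a by -0.31, its corepressor Rcor2 by -0.23 and the maintenance methyltransferase gene Dnmt1 by -0.24 (edgeR adjusted p 0.000112, 0.000206, 0.00167 and 0.00172). Trim28, the corepressor of KRAB zinc finger proteins, changed by 0.02 (edgeR adjusted p 0.842) and turned sign without SRF KO replicate 1 or WT replicate 2. Setdb1, its histone methyltransferase partner, lay at the threshold with -0.12 (edgeR adjusted p 0.0497) and was not called when SRF KO replicate 1, 2 or 3 or WT replicate 1 or 3 was omitted (-0.13 to -0.12).

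Of 20 oocyte genes, 8 were tested, 1 was higher and 3 lower, with 21.2% of all genes tested higher and 21.3% lower. Ooep and Tcl1, which are also transcribed in pluripotent cells, changed by -1.05 and -0.64, and Zbed3 by 0.49 (edgeR adjusted p 2.8e-07, 2.7e-05 and 0.000212). Padi6 had -0.99 with overlapping groups. Oosp1 and Oog1 were at 0 in every library, and 7 of the 19 genes in the table had at most 3 counts in any library.

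Markers of other cell types moved with the groups, and their part in the differences of MERVL-int, MT2_Mm and the other called members was not tested. Their counts stand beside 21.2% higher and 21.3% lower over all genes tested. Extraembryonic endoderm markers were higher in SRF KO for 15 of 15 tested of 16 listed, with a summed level between 2802 and 3022 CPM in SRF KO and between 233 and 253 CPM in WT. Ttr was at 0 in all WT libraries and Afp at 3 counts or fewer in every library. Fibroblast markers were higher for 11 of 12, with sums between 936 and 1116 CPM in SRF KO and between 461 and 513 CPM in WT, and none at 0 in a group. Of 10 pluripotency markers 6 were lower and 1 higher, with sums between 5125 and 5225 CPM in SRF KO and between 6188 and 6670 CPM in WT. All 10 had counts in both groups, so that SRF KO libraries held pluripotency markers beside raised endoderm and fibroblast markers. In bulk RNA, more cells that express MERVL and more MERVL RNA per cell cannot be told apart.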

How the data were processed

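Bulk RNA was measured in 3 SRF KO and 3 WT libraries of mouse iPSCs. Per the labels' protocols, paired reads were cleaned of adaptor, low-quality and empty reads. The submitters' processing notes name the build mm10 and DESeq2. The aligner, counting program, strand setting and rule for reads that fit several copies are not given in the sources used here. The authors deposited raw read counts per gene and per subfamily, judged from the whole-number values. No count was altered.

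All rows were fitted together in R 4.3.3 with edgeR 4.0.16 (filterByExpr with a minimum count of 10, TMM factors, quasi-likelihood test, Benjamini-Hochberg adjustment over 15611 rows, threshold 0.05). The replicate number was not a term. SE is the absolute log2 fold change divided by the square root of F, and intervals use the moderated degrees of freedom. Alternatives were DESeq2 1.42.0, RLE factors, library totals, TMM from transposable element rows, no filter, a threshold of 0.01, a replicate block, each library left out, and a member minimum of 100 counts. The fits were also run on simulated data in which far fewer rows changed than were called here. That run therefore gives no measure of the scaling or of false calls in these data.

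Members, lists and tests were chosen with earlier results of these data known. The members named were the MERVL and MT2 rows, MTA_Mm and MTA_Mm-int, every called member, the 5 with most counts per family and the 2 uncalled members per family with the smallest p. The genes named were Srf, Dux, Dppa2, Dppa4, Trim28, Setdb1, Kdm1a and up to 4 called genes per list. Other names were chosen after their values were seen. Sequences of the elements were not used here.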

Additional observations from a re-analysis of the deposited data

How the results depend on the processing

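MERVL-int, MT2_Mm, Srf and the number of 2-cell genes higher kept their direction and call, or their count within 1.5 times, under all alternatives run for them. The subfamily counts moved more, and the cause was not tested. ERVL subfamilies lower were 1 by DESeq2, 1 with TMM from transposable elements, 3 with no filter, 1 at an adjusted p under 0.01 and 3 among members with a mean of 100 or more, against 5. MaLR subfamilies lower were 1 by DESeq2, 3 with library totals, 1 with TMM from transposable elements and 1 at an adjusted p under 0.01, against 6. MaLR subfamilies higher were 1 with RLE factors, 2 with library totals and 1 with TMM from transposable elements, against 0. When each library was left out in turn, ERVL higher were between 3 and 6, ERVL lower between 1 and 5, MaLR higher between 0 and 3 and MaLR lower between 1 and 7. In these fits the ERVL median was between -0.081 and 0.011 and the MaLR median between -0.094 and -0.041. With TMM from transposable elements, which shifted the median of all rows by 0.08, the ERVL and MaLR medians were 0.065 and 0.0034. The MERVL-int ratio differed by 0.69 when all MT2 rows were the denominator and by 0.16 to 0.27 with a library left out, against 0.20. The ERVL share had a ratio of 1.01 without MERVL-int and MT2_Mm, against 1.10.

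The replicate numbers did not settle whether libraries were paired: deviations from the group mean correlated by 0.0474, 0.279 and 0.148 between libraries numbered 1, 2 and 3. SRF KO replicates 2 and 3 correlated best with the WT library of their own number, whereas SRF KO replicate 1 did so with WT replicate 3 (0.169). With the replicate block, ERVL were 5 higher and 5 lower and MaLR 2 higher and 10 lower, MERVL silencers were 4 higher and 20 lower, LTR86B2 was not called (edgeR adjusted p 0.0532), and MERVL-int stayed at 0.66, MT2_Mm at 0.46 and Srf at -3.12.

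Single rows near 0 turned sign. None of these was called in either fit except MTEb-int, called without WT replicate 1. With library totals they were MERVL_2A-int (0.00085), MT2B2 (0.031), MTC (0.00044), RMER10A (0.018) and Dppa4 (0.0014). With TMM from transposable elements they were MERVL_2A-int (0.045), MT2B2 (0.073), MTA_Mm (0.0033), MTC (0.044), MTD (0.017), ORR1B1-int (0.021), RMER10A (0.061) and Dppa4 (0.044). MT2B2 was 0.0026 with RLE factors. When each library was left out in turn, the ranges that crossed 0 were -0.072 to 0.018 for MERVL_2A-int, -0.081 to 0.080 for MT2B2, -0.047 to 0.0053 for RMER10A, -0.067 to 0.018 for Dppa4, -0.039 to 0.071 for Trim28 and -0.80 to 0.77 for MTEb-int. Depth limits rows under 100 counts. The alternatives for single rows other than MERVL-int, MT2_Mm and Srf, and for the activator, silencer and oocyte lists, were chosen after seeing the data.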
